A study of Ornithorhynchus anatinus with 3 samples.

Results

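Contig819 is an unplaced scaffold of the platypus (Ornithorhynchus anatinus) genome assembly used by Ensembl release 57, on which the deposited tables list a dense run of short loci. The members described here are all 70 of its loci among the 22369 loci of the ovary table, and they were matched to the fibroblast tables by identifier, which gave a value for every one of them. The contig was picked out because its median male to female (M∶F) ratio in fibroblasts was high in an earlier look at these data, so it was selected on fibroblast RPKM values. Its M∶F ratios are therefore given below as a description. The 3 libraries are an ovary labelled as ovulating from an adult female (RNA integrity number 9.3), fibroblasts from an adult male (8.9) and fibroblasts from another adult female (9.9, also labelled as ovulating), each from 1 animal captured in the wild, with no treatment named in the labels. Fibroblasts are connective tissue cells that grow in culture. With 1 library in each group there is no spread between replicates and no test, and sex, animal and culture cannot be told apart.

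Core histones H2A, H2B, H3 and H4 are the proteins around which DNA is wound to form nucleosomes. In animals most of their genes have no introns, occur in many nearly identical copies that lie close together in clusters, and are transcribed when a cell copies its DNA. Their messages usually end in a stem-loop in place of a poly(A) tail, and egg cells are known to store histone messages for the first divisions of the embryo. H2A and H2B genes often lie side by side and are read in opposite directions from a shared promoter. These are general facts about histone genes, and the tables do not pair the identifiers of the contig with gene names, so that whether a given locus encodes a histone is not known here. No sequence of the members was at hand.

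The label of the contig rests on locus length, and the lengths bore it out only in part. The usual coding lengths are 312 bp for H4, 381 bp for H2B, 393 bp for H2A and 411 bp for H3. Of the 70 loci, 12 measured exactly 312 bp and 4 exactly 411 bp, while 0 measured 381 bp and 0 measured 393 bp. Thus 16 loci had a core histone length and 54 did not. Just outside these lengths, 1 locus measured 313 bp, 1 measured 408 bp and 2 measured 414 bp. Within 15 bp, the H4 length took in 13 loci, the H3 length 16 and the H2B length 0. The H2A length took in 4, of 405 and 408 bp, all of them also among the 16 near the H3 length. Of the 30 loci between 300 and 450 bp, 29 had a length that is a multiple of 3, as uninterrupted coding sequences do. The 16 loci of core histone length are among these by definition. The share among other loci of this size was not counted, so this is not known to be particular to the contig. The whole ovary table holds 21 loci of 312 bp, so that this contig alone carried most of them, with the other 9 lying elsewhere. The loci are accordingly called the Contig819 loci and are named by length and position.

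The loci lie between positions 6844 and 412290 of the contig, a span of 405 kb. Of them, 40 are at most 600 bp long, 21 lie between 600 and 1500 bp and 9 are longer than 4000 bp, up to 24855 bp. The contig was divided into 2 blocks. The division was made at the largest distance between neighbouring starts among the 312-bp loci and the ovary sets described below. The left block, at positions 6844 to 181853, holds 40 loci and only 2 over 4000 bp, and the right block, at positions 330371 to 412290, holds 21 loci and 1 over 4000 bp. Between them, at positions 187459 to 318570, lie 9 loci of which 6 exceed 4000 bp. None of these 9 could have a core histone length, since all such loci are among those around which the division was made. Loci of 312 bp occurred in both blocks, 7 in the left and 5 in the right.

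Some neighbouring loci of the contig lay at a like distance. Among the 69 gaps between neighbouring loci the median was 1633 bp, but 12 gaps (17.4%) measured between 250 and 350 bp, from 261 to 337 bp. Elsewhere, 38 of 11243 neighbouring loci in the ovary table (0.338%) were that far apart. These close neighbours were not a mixture of all kinds of loci: none of the 12 pairs included a 312-bp locus. None included a locus with 154 to 157 ovary fragments (described below) either. A locus of 582 to 1271 bp with a wide ovary interval (described below) belonged to 10 of the 12 pairs. In 7 of the pairs the partner was one of the loci with 92 to 116 ovary fragments, as for the 420-bp locus at positions 123413 to 123832 and the 901-bp locus at positions 124132 to 125032, 299 bp away. The tables give no strand, so that the direction of transcription within a pair is not known.

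The ovary values are FPKM, fragments per kilobase scaled to the number of mapped fragments, each with the limits of an interval. If these limits lie 2 square roots of the fragment count from the value, as the whole numbers below imply, the count follows from the interval. For 45 of the 64 Contig819 loci with an FPKM above 0 the count so obtained was whole within 0.05. On this scale 1 fragment was worth 0.291 FPKM for a locus of 312 bp and 0.152 FPKM for one of 411 bp. These values differ by more than the 2 lengths do, so the ovary values are not divided by the full locus length. The FPKM of the shortest loci is raised most by this, also against longer loci elsewhere. The steps at repeated lengths between 400 and 440 bp correspond to about 32300000 mapped fragments in the ovary library. The number of reads behind the fibroblast values is unknown.

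Loci of the contig were listed above 0 in the ovary far more often than short loci elsewhere. Above 0 were 64 of the 70 loci (91.4%), that is 15 of the 16 of core histone length (93.8%, 95% Wilson interval 71.7% to 98.9%, for counting error only) and 49 of the 54 others (90.7%). Among the 3822 loci of up to 600 bp on other Contig scaffolds the share was 17.7%, and among the 616 of these that measured at least 300 bp it was 56.3%. The latter set is the closer one in size, because most short loci elsewhere were under 300 bp. Of the 37 Contig819 loci of 300 to 600 bp, 36 were above 0 (97.3%), while the share over all loci was 69.6%. The median ovary FPKM, values of 0 included, was 14.2 over the 70 loci, 14.03 over the 37, 0.293 over the 616 and 8.28 over autosomal loci. Over values above 0 alone the medians lay closer together, with 14.1 for the 37 loci, 4.95 for the 616 and 13.5 for autosomal loci.

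Of the 70 loci, 40 were placed in sets, described below, with ovary values between 13.2 and 23.5 FPKM. The 12 loci of 312 bp ran from 0 to 11.3 FPKM and the remaining 18 from 0 to 506. Among these 18, a locus of 267 bp (14.1 FPKM) and one of 313 bp (16.6 FPKM) had values in the range of the sets too. Narrow ranges show most clearly in the 17 loci of 400 to 440 bp, because their lengths are nearly the same. In 11 of them the fragment number was between 92 and 115 (mean 99.8, SD 5.98), and in the other 6 between 154 and 157 (mean 155, SD 1.17). No locus lay between 115 and 154 fragments. If the loci had been counted independently, counts of this size would vary by about 9.99 and 12.5 fragments (the square roots of the means). The spread within each of these ranges was smaller than that, but the ranges were drawn after the values had been seen, which by itself narrows the spread. Among the 68 loci of 400 to 440 bp on other scaffolds with an FPKM above 0, 17.6% lay in the same ranges (9 with 90 to 120 fragments and 3 with 150 to 160).

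**Figure D1:**
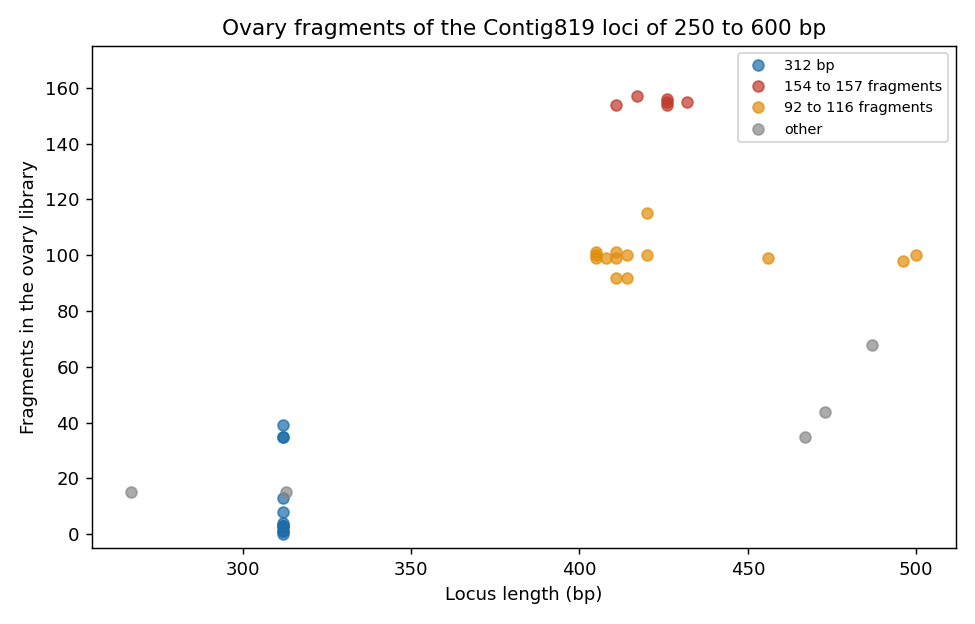
Ovary fragment number (y axis, from the deposited interval) against locus length in bp (x axis) for the Contig819 loci of 250 to 600 bp, loci with wide intervals left out; each point is 1 locus and colours mark the level. Loci of 312 bp reach at most 39 fragments, whereas those of 400 to 440 bp sit at 92 to 115 or at 154 to 157.

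The upper level comprised 8 loci with 154 to 157 fragments and an FPKM of 20.7 to 23.5 (deposited half-widths of 16.0% to 16.1% of the value). They were 411 to 890 bp long and 6 lay in the left block. The middle level comprised 17 loci of 405 to 1111 bp with 92 to 116 fragments and an FPKM of 13.8 to 16.8. Another set of 15 loci of 582 to 1271 bp had an FPKM of 13.2 to 19.0, which spans that of the middle level, but far wider intervals of 54.9% to 65.8% of the value, and their counts did not come out whole. These 15 loci are listed with less precision than those of both levels. Levels and sets were formed from ovary values after these had been seen and serve as a description. The wide-interval set was drawn only from loci of high ovary FPKM. Short reads cannot tell nearly identical copies apart. Whether loci of a level share ovary reads was not tested, and the value of any single locus is uncertain for this reason. At the middle level, the loci at positions 396593 (411 bp) and 410847 (405 bp) had 99 ovary fragments each. Their M∶F ratios were equal (0.669), and in fibroblasts these rows are not separate measurements.

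Among the 4 loci of 411 bp, the length of H3, 3 belonged to the middle level and 1 to the upper one. The locus at positions 130264 to 130674 had an ovary FPKM of 15.4 (deposited interval 12.3 to 18.5), that at positions 336504 to 336914 had 14.0 (11.1 to 17.0) and that at positions 396593 to 397003 had 15.1 (12.1 to 18.1). The intervals of these 3 loci overlap. The locus at positions 122217 to 122627 had 23.5 (19.7 to 27.3), above the intervals of the other 3. Loci of 405 to 414 bp, close to the length of H3, lay at the middle level too, with 13.8 to 15.9 FPKM, so that an exact length of 411 bp did not go with a level of its own.

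The 12 loci of 312 bp, the length of H4, were the lowest of the 30 loci of 300 to 450 bp. Their median was 1.02 FPKM, and 7 of them had 4 fragments or fewer. The locus at positions 19419 to 19730 was listed at 0, those at positions 6844 and 364991 had 1 fragment each (0.291 FPKM), and those at positions 114774, 132894 and 373549 had 3 each (0.872 FPKM). The locus at position 37144 had 4 fragments (1.16 FPKM), that at position 394147 had 8 (2.32 FPKM) and that at position 409177 had 13 (3.78 FPKM). Of these 9 loci only the last 2 had an interval that lay above the value of 1 fragment (0.681 to 3.97 and 1.68 to 5.87). The loci at positions 162612 and 165700 had 35 fragments each (10.2 FPKM, 6.73 to 13.6), and that at position 350092 had 39 (11.3 FPKM, 7.70 to 14.96). These 3 stood above the other 9, with intervals that do not overlap theirs. The pair at positions 162612 and 165700 had equal values not only in the ovary but also in both fibroblast libraries (0.246 RPKM in the male and 0.132 in the female), so that these 2 rows are not separate measurements. In all, 3 sets of loci with equal ovary FPKM covered 7 of the 312-bp loci.

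In fibroblasts the same loci were low. RPKM is the read-based form of FPKM. Because the ovary values are not divided by full locus length, FPKM and RPKM of short loci are not on a like scale. Of the 70 loci, 49 were above 0 RPKM in male (95% Wilson interval of the share 58.5% to 79.5%) and 47 in female cells (55.5% to 77.0%), close to the 64.2% and 65.1% of all loci. These intervals are for counting error only and treat all rows as separate, which some are not. The contig was also selected on fibroblast values. Among the 37 loci of 300 to 600 bp, 27 (male) and 24 (female) were above 0, compared to 41.3% and 41.5% of the 612 listed loci of this size on other Contig scaffolds. However, an RPKM of 1 was reached by 19 loci in the male library but by 7 in the female one, and the medians over all 70 were 0.157 and 0.0803. Detected loci of the contig thus lay below detected loci of like length elsewhere, whose male and female medians were 4.38 and 3.46, against 0.755 and 0.202 for the 37 loci of 300 to 600 bp on the contig. Both fibroblast libraries were listed at 0 for 10 loci, of which 8 had an ovary FPKM above 0 and 2 had none.

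**Figure D2:**
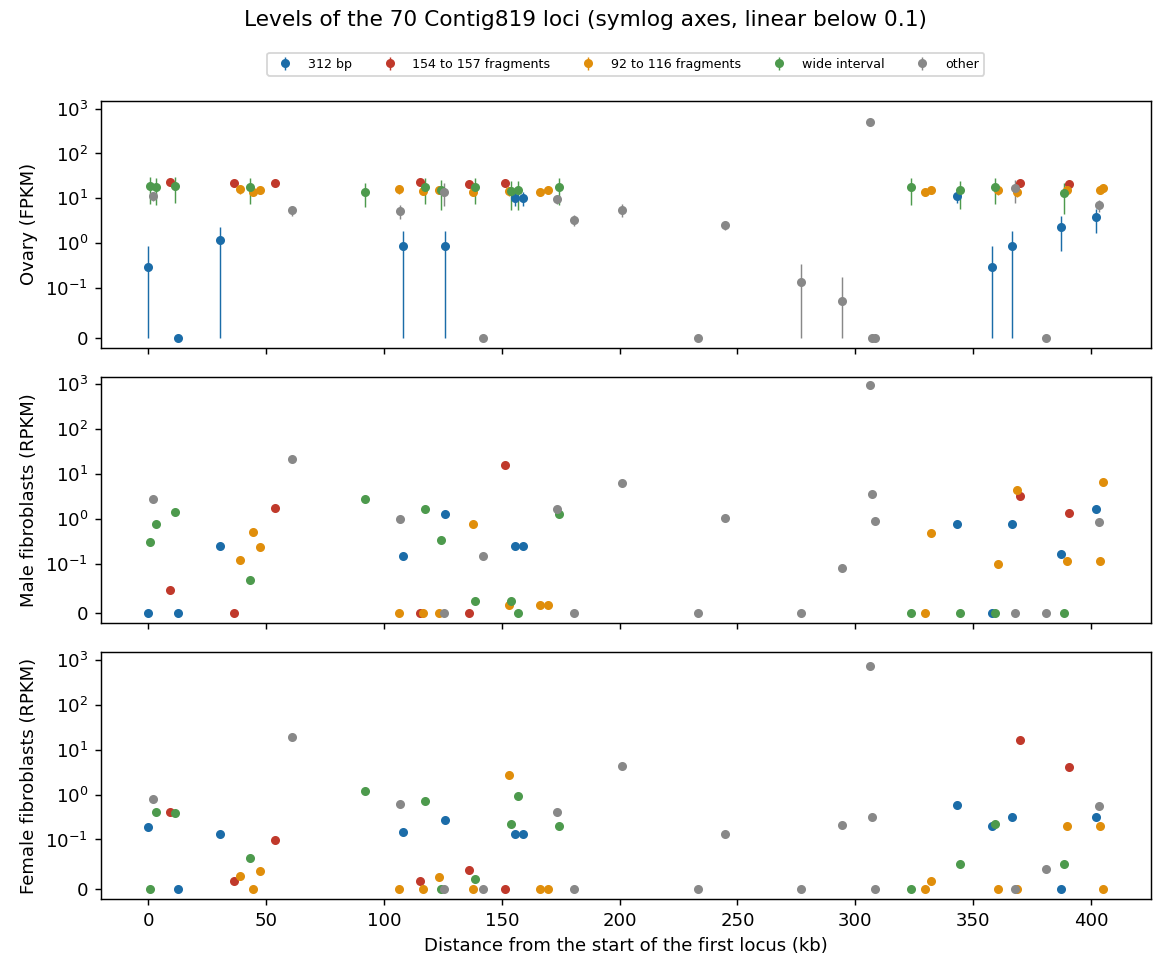
Ovary FPKM with its deposited interval (top), male fibroblast RPKM (middle) and female fibroblast RPKM (bottom) of the 70 Contig819 loci, on symlog axes that are linear below 0.1, against the distance in kb from the first locus; colours mark the ovary levels. The upper, middle and wide-interval loci of both blocks line up between 13.2 and 23.5 FPKM in the ovary, whereas the fibroblast values of the same loci scatter from 0 to 17.0.

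The 312-bp loci were above 0 in 9 of 12 cases in male cells and in 10 of 12 in female cells. Their male values reached 1.66 RPKM at position 409177, 1.27 at position 132894, 0.778 at position 350092 and 0.755 at position 373549, and were at most 0.246 at the others. The female values lay between 0.132 and 0.588 where they were above 0. The locus highest in the ovary, at position 350092, was also the highest of the 12 in the female library but not in the male one. For the 411-bp loci the fibroblast values were lower still. The only male value above 0 was 0.116 RPKM at position 396593, and the female values were 0.0170 at position 122217, 0.0255 at position 130264, 0.198 at position 396593 and 0 at position 336504.

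**Figure D3:**
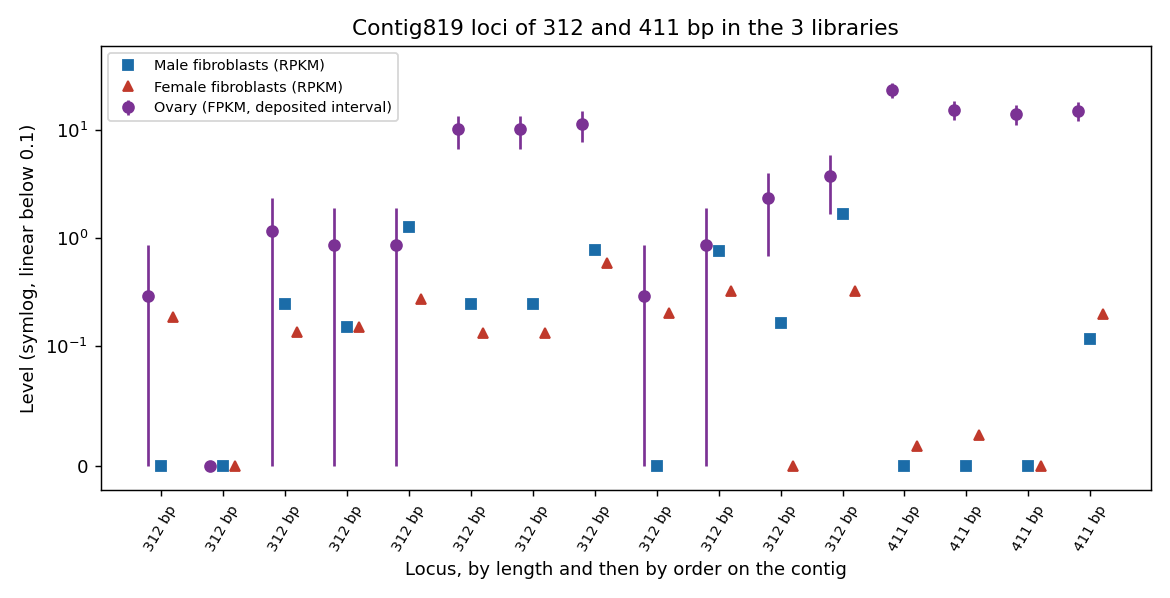
Ovary FPKM with its deposited interval (circles), male (squares) and female (triangles) fibroblast RPKM of the 12 loci of 312 bp and the 4 loci of 411 bp, in contig order within each length, on a symlog axis that is linear below 0.1. The 411-bp loci combine ovary values of 14.0 to 23.5 with fibroblast values of at most 0.198.

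Relative to the autosomal median of each library (13.5 FPKM in the ovary, 12.5 RPKM in female and 10.8 RPKM in male fibroblasts), the loci were higher in the ovary than in fibroblasts. Of the 45 loci above 0 in both the ovary and the female library, 38 were at least 2-fold higher in the ovary, which was the case for 31.0% of the 13094 loci of the whole table, and 2 had a ratio of 0.5 or less (23.7% of all loci). The median ratio was 23.7, compared to 1.03 over all loci. The fibroblast values in these ratios are among those on which the contig was selected. A choice for a high M∶F ratio favours low female values, so this count and median may follow in part from it. Against male fibroblasts 37 of 46 loci were at least 2-fold higher, with a median of 11.3. The share over all loci was not computed for the male comparison, so this count stands without a reference. All 3 of the 411-bp loci with a ratio were higher, from 70.8-fold to 1282-fold, the latter resting on a female RPKM of 0.0170. Of the 10 loci of 312 bp with a ratio, 8 were at least 2-fold higher (median 6.73). The rows at positions 162612 and 165700, which are not separate measurements, both count among them. The ratios at positions 114774, 132894 and 373549 (5.44, 3.00 and 2.49) rest on 3 fragments each, with a deposited lower limit of 0. FPKM of short loci is raised because it is not divided by full locus length. This count and median, and the other ratios of short loci, may therefore be too high. Of the 26 loci with a ratio in the upper, middle and wide-interval sets, 25 were at least 2-fold higher. Since these sets were formed on their ovary values, this count follows largely from how they were formed, and nothing is read from it. Ovary and fibroblast tables were not made alike, and how reads that fit several copies were counted in either is not given in the sources used here. Its part in these ratios was not tested. Ovary, animal and culture also cannot be told apart.

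The 18 loci outside these sets were mixed. Of the 9 with a ratio, 5 were at least 2-fold higher in the ovary than in female fibroblasts. These were the loci at positions 180301 (487 bp, 21.8-fold), 251468 (12373 bp, 17.9-fold), 8618 (1177 bp, 13.2-fold), 410068 (473 bp, 11.6-fold) and 113793 (467 bp, 7.82-fold). The other 4 were all over 4000 bp long and had ratios of 0.253 to 1.16. Of these, the locus ENSOANG00000000209, at positions 313190 to 318570 between the blocks, was by far the most abundant member in each library, with 506 FPKM in the ovary (495 to 516), 959 RPKM in the male and 743 in the female fibroblasts. It was lower in the ovary relative to the autosomal median, with a ratio of 0.633. It contains 2 loci of 71 bp, both listed at 0 in the ovary and at 3.51 and 0.909 RPKM in the male and 0.311 and 0 in the female library. Because the loci overlap, their reads cannot be assigned with certainty. The 24855-bp locus at positions 67959 to 92813 had 5.36 FPKM in the ovary against 22.2 and 19.7 RPKM in male and female fibroblasts, and was the most clearly higher in fibroblasts (ratio 0.253). The 21761-bp locus at positions 207620 to 229380 had 5.50 FPKM, 6.40 RPKM and 4.41 RPKM, respectively (ratio 1.16). The M∶F ratios of these 3 long loci were 1.48, 1.29 and 1.66.

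The M∶F ratio, divided by the autosomal median ratio of 0.875, had a median of 2.09 over the 36 loci above 0 in both fibroblast libraries, the value for which the contig was chosen, and ranged from 0.00695 to 34.3. It was at least 2 for 19 of them (11.0% of the 12909 loci tested) and 0.5 or less for 6 (7.17%). Since these counts follow from the choice, nothing is read from them. For the 8 loci of 312 bp with a value in both libraries the ratio lay between 1.15 and 5.86 with a median of 2.13, and all 8 were higher in the male library. The rows at positions 162612 and 165700, which are not separate measurements, both count among these 8 and each has the median value. The only 411-bp locus with a value in both libraries, at position 396593, had a ratio of 0.669. The 405-bp locus at position 410847, not a separate measurement in fibroblasts, had the same ratio. Both rows count among the 36 and in the middle-level sums given below.

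The fibroblast values behind these ratios are given next by ovary level, as a description only. Ratios of summed values were also divided by the autosomal median ratio of 0.875, so they differ from the plain quotient of the sums. At the upper and at the middle level 1 locus led each library, and it was not the same one in both. At the upper level, the 426-bp locus ENSOANG00000000190 at positions 158372 to 158797 had 15.6 RPKM in the male library, 70.8% of the sum over the 8 loci, and was listed at 0 in the female library. The 432-bp locus at positions 376811 to 377242 had 17.0 RPKM in the female library, 78.4% of the sum, and 3.32 in the male one. In the ovary these loci had 155 fragments each. Summed over the 8 loci, the male and female values were 22.0 and 21.7 RPKM, an M∶F ratio of 1.16, although single loci ranged from 0.130 to 20.02 and 4 of the 8 were at 0 in 1 library. Without these 2 loci the ratio of the sums was 0.762.

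At the middle level, the male sum over 17 loci was 13.3 RPKM and the female sum 3.20, a ratio of 4.77. This ratio and the ratios of sums below were divided by the autosomal median ratio too. The 420-bp locus at positions 411871 to 412290 supplied 48.9% of the male sum (6.53 RPKM) and was at 0 in the female library. The 456-bp locus at positions 159873 to 160328 supplied 84.2% of the female sum (2.69 RPKM) and had only 0.0164 RPKM in the male library. Without these 2 loci the sums were 6.79 and 0.504 RPKM, and the ratio was 15.4. For the wide-interval set the sums were 8.63 and 4.48 RPKM (ratio 2.20) and for the 312-bp loci 5.52 and 2.44 RPKM (ratio 2.58). In these 2 sets the leading locus supplied 24.1% to 31.7% of a sum, and in the wide-interval set it was the same locus in both libraries, at positions 98726 to 99765. At the upper level 2 loci had the higher value in the male and 6 had it in the female, compared to 10 and 4 at the middle level and 9 and 2 among the 312-bp loci. These differences between sets were not tested, and since the contig was selected on the same values nothing is read from them.

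**Figure D4:**
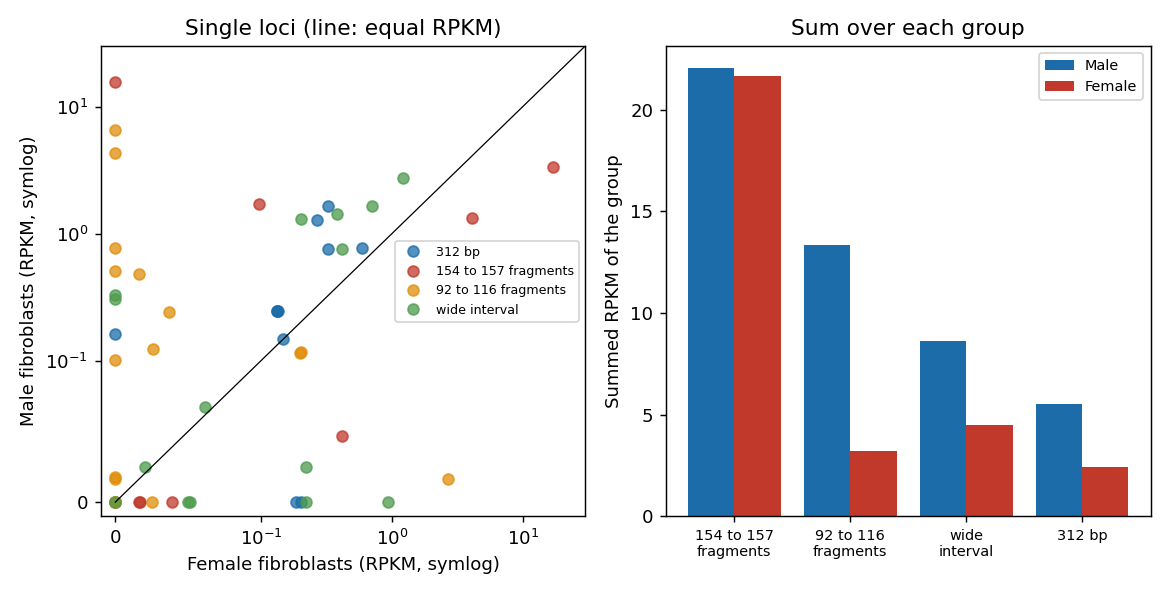
Left, male against female fibroblast RPKM of single Contig819 loci on symlog axes, coloured by ovary level, with a line of equal RPKM; right, the RPKM of each set summed in the male and the female library. Single loci of the upper level lie far from the line on both sides, while their sums are 22.0 and 21.7 RPKM.

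Other scaffolds held 42 loci of the same 4 lengths, whose ovary levels were like those of the contig in part. The 9 loci of 312 bp elsewhere had 1 to 10 fragments and a median of 1.16 FPKM, within the range of the 12 on the contig but without its 3 high loci. Of the 10 loci of 411 bp elsewhere, 4 had 13.9 to 17.2 FPKM (91 to 113 fragments), as at the middle level of the contig, and the other 6 at most 1.37, including 3 at 0. All 4 on the contig, by comparison, had at least 14.0 FPKM. Of the 18 loci of 381 bp, the length of H2B that the contig lacks, 10 had 6.26 to 8.40 FPKM (35 to 47 fragments), 7 had at most 1.42 (3 of them 0) and 1, on Contig270187, had 365. The 5 loci of 393 bp, the length of H2A, were all listed at 0 in the ovary. Other scaffolds also joined several of these lengths on a short stretch. Contig36014, with 3 loci in all, holds 1 each of 411, 381 and 312 bp, with 17.2, 7.51 and 2.32 FPKM in the ovary, and Contig20226 holds 1 of 381 and 1 of 411 bp, with 7.51 and 15.2 FPKM. Since length alone does not identify a histone gene, these loci are given as a comparison by size only.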

How the data were processed

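RNA-seq libraries of 1 ovary, 1 male and 1 female fibroblast sample were compared. The authors deposited FPKM values with interval limits for the ovary, laid out as Cufflinks does, and RPKM values for the fibroblasts, per the file headers. Per the submitters' processing notes, Bowtie, TopHat 1.0.13 and Cufflinks 1.0.3 were used; the gene models were based on Ensembl release 57. The genome build by name, and the counting of reads that map to several copies, are not given in the sources used here. The members and sets were chosen with earlier results of these data known. From the 22373 rows of the ovary table, 4 repeated identifiers were dropped. Lengths are end minus start, since the file counts the start from 0; positions are printed counted from 1. Negative fibroblast codes (7 genes) were left out. All 70 members had the status OK, and 3 overlap another member. M∶F ratios of single loci were computed where neither fibroblast value was 0 and scaled by their median over 1655 autosomal loci. Ratios of sums were scaled by the same median. All loci of 312 and 411 bp, and among the others the 5 with the highest ovary FPKM and the 5 with the highest fibroblast mean, were eligible to be named. Others named were chosen after their values were seen. Ovary fragment numbers were recovered from the interval limits, and the steps were tested on simulated data. The simulated limits were built by the rule that the recovery assumes, so this checks the arithmetic and not whether the deposited limits follow that rule. The counts simulated for the 2-fold step were far larger than those of most members. Depth is known only for the ovary. The steps were run in Python 3.11.15 (pandas 2.3.3, numpy 2.4.6, matplotlib 3.10.9, scipy 1.17.1). Alternatives tried were other detection limits, length tolerances, reference sets, pseudocounts and scalings.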

Additional observations from a re-analysis of the deposited data

How the results depend on the processing

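No paired analysis was possible because there was a single library of each kind, and no result comes from a test. A value was taken as moved when it left its 95% Wilson interval (shares), the interval between order statistics of the loci (medians) or a factor of 1.5 (counts). Of 68 alternative values, 41 stayed and 27 moved; the division left out in the comparison with the ovary and the leading loci left out of the sums were chosen after seeing the data.

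Detection at a value of at least 1 lowered the shares. For loci of core histone length they became 62.5% (ovary), 12.5% (male) and 0% (female) (reported as 93.8%, 62.5% and 81.3%), and 56.3% in the ovary with a lower limit above 0. For the other members they became 31.5% (male) and 12.96% (female). For loci up to 600 bp elsewhere they became 15.4%, 16.0% and 15.2%, with a lower limit above 0 12.3%, with Ultra scaffolds 25.8% (male) and 26.8% (female), and at 300 to 600 bp 56.3%, 41.3% and 41.5%. Their medians rose from 0 to 11.8, 2.74 and 2.22 over values above 0 only, and to 0.293 in the ovary at 300 to 600 bp. The female median of the other members rose to 0.267 over values above 0. With lengths within 15 bp the ovary median of the core-length loci rose from 3.05 to 14.6 FPKM, because loci of 405 to 426 bp then join the 312-bp loci. The median M∶F ratio of core-length loci, 2.13, became 5.63 where one of the RPKM values had to reach 1, and that of all members became 1.21 with log2(RPKM + 1). A pseudocount pulls low loci toward 1. Of the core-length loci 7 rather than 11 were at least 2-fold higher in the ovary against male fibroblasts, and of the others 43 rather than 27 with a pseudocount of 1, which brings in loci at 0 in fibroblasts. The precision of loci under 4 fragments is limited by depth.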
